A study of Mus musculus with 2 samples.

Results

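Transcripts of 37 genes that mark the urothelium, the epithelium lining the ureter, were followed in ureters of mouse embryos. The genes were chosen by name: 5 uroplakins, 9 keratins, 13 transcription and splicing regulators and 10 surface and membrane genes. Every probe carrying one of these names was used, 45 probes among 39429 on the array, which represent 31964 genes in all. A probe with neither a gene name nor a matched accession counts as a gene of its own, and 28312 of the 31964 are named. Testing required 1 labelled group to be well above background on each array. That held for 41 of the 45 probes and 35 of the 37 genes, against 21272 genes in the whole series, 19441 of them named.

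Two-colour arrays compared ureters dissected at E14.5, where E counts embryonic days, from NMRI mice. The mutants, Smad4cKO (UM), had the genotype Tbx18(cre/+);Smad4(fl/fl), and the controls Tbx18(+/+);Smad4(fl/+). Both genotypes therefore carry a floxed Smad4 allele, and only the mutants carry Cre at Tbx18. Loss of Smad4 and presence of that Cre allele cannot be told apart here. Cre made from the Tbx18 locus acts in the ureteric mesenchyme and not in the urothelium, so the urothelial genes are read in a tissue whose neighbour was mutated. Array 1 paired females, with the labelled control in the red dye AlexaFluor647 and the labelled Smad4cKO in the green dye AlexaFluor555. Array 2 paired males with the dyes exchanged. Sex and dye orientation changed together and cannot be told apart. The labels do not give how many embryos or litters entered each RNA, so all errors and p-values measure only the spread between these 2 arrays, which may be technical.

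The urothelium develops from the ureteric bud into a layered epithelium with basal, intermediate and superficial cells. Superficial cells assemble uroplakins into membrane plaques that make the lumen watertight, while keratin filaments give the cells strength and differ by layer. Signals pass both ways between urothelium and mesenchyme, and SMAD4 is the partner that BMP and TGFB pathway SMADs share. The comparison asks how the urothelial programme stands when Smad4 is removed from the adjoining mesenchyme.

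The probes of 7 genes are shown because the results turn on them: the bright keratins Krt7, Krt8, Krt18 and Krt19 with Fxyd3, whose ratios changed sign between the arrays, and Krt15 and Upk3a, whose ratios kept theirs. Each is the array's 60-base probe, 5′ to 3′, as the deposited scanner files give it. No letter is singled out, so all are in lower case.
Krt7: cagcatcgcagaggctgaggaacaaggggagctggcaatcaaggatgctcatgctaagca
Krt8: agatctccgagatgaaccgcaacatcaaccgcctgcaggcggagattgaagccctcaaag
Krt18: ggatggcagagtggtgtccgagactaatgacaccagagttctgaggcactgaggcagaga
Krt19: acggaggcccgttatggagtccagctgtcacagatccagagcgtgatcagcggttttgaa
Fxyd3: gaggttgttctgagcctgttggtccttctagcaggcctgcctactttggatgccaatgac
Krt15: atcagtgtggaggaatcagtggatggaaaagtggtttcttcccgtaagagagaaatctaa
Upk3a: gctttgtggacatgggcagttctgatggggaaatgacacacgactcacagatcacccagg

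In the coordinates of the files (build mm9) these probes lie at chr15:101253718-101253777 (Krt7), chr15:101828827-101828886 (Krt8), chr15:101862341-101862400 (Krt18) and chr11:100002392-100002451 (Krt19). The Krt15 probe lies at chr11:99993331-99993390. The Fxyd3 probe spans chr7:31857207-31858634 and the Upk3a probe chr15:84851819-84852720, so both cross an intron. Keratins are a family of related sequences. The longest run of bases shared by any 2 of the keratin probes was 8. Probes were compared only with each other, so binding of a probe to transcripts of other keratins was not tested. GC content was 55% in each of the Krt7, Krt8, Krt18 and Krt19 probes, 53.3% in those of Fxyd3 and Upk3a, and 41.7% in that of Krt15.

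Every log2 ratio below sets the channel labelled Smad4cKO over that labelled control, as the dye labels name them, and "brighter" means a ratio above 0. By those labels, values of the authors' deposited table are control over Smad4cKO, although its titles put Smad4cKO first, so read as titled they have the opposite sign. The targeted gene was lower on both arrays at both of its tested probes: Smad4 gave -0.31 and -0.49 at one probe and -0.69 and -0.14 at the other. The labels do not name the deleted part of Smad4, and a probe outside that part checks nothing. Tbx18, the locus that carries Cre in the mutants, gave 0.07 and 0.81 and so lay above 0 on both arrays. Neither locus settles the direction. Between 68.3% and 70.3% of spots were well above background in the 4 channels, and 0 spots were saturated.

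Among the urothelial genes no transcript passed limma's test in either direction (0 of 35 brighter and 0 of 35 dimmer, Benjamini-Hochberg adjusted p under 0.05 over all genes; smallest adjusted p 0.625). The background of that call was 0% of the 21272 genes. At an unadjusted limma p under 0.05, 1 of the 35 genes was dimmer, Krt20, and 0 were brighter, where 2.96% of all genes were dimmer and 2.13% brighter (5.10% in all). A rule without a test counted genes whose ratio passed 1.5-fold on each array, the same way on both. It was met by 0 of the 35 genes, against 0.489% of all genes brighter and 0.522% dimmer (1.01% in all). Past 1.5-fold in opposite directions lay 0 of the 35 and 1.27% of all genes.

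Ratios of the urothelial genes were small. Of the 35 genes, 17 gave ratios above 0 on each array (48.6%), where 19.9% of all genes did. A further 3 were dimmer on both (Upk3a, Krt20 and Grhl1), where 19.8% of all genes were, and 15 had opposite signs (42.9%), where 60.3% of all genes had. These shares over all genes are also the background of each list's counts below. The median of the 35 mean log2 ratios was 0.15, with 0.15 on array 1 and 0.06 on array 2. Over all genes tested those medians were 0.0048, 0.0087 and -0.0073. The means ran from -0.46 for Krt20 to 0.36 for Ehf. In bulk tissue, a different share of urothelial cells and a different amount of RNA per cell cannot be told apart, and dissection sets how much of each tissue enters the RNA.

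**Figure D1:**
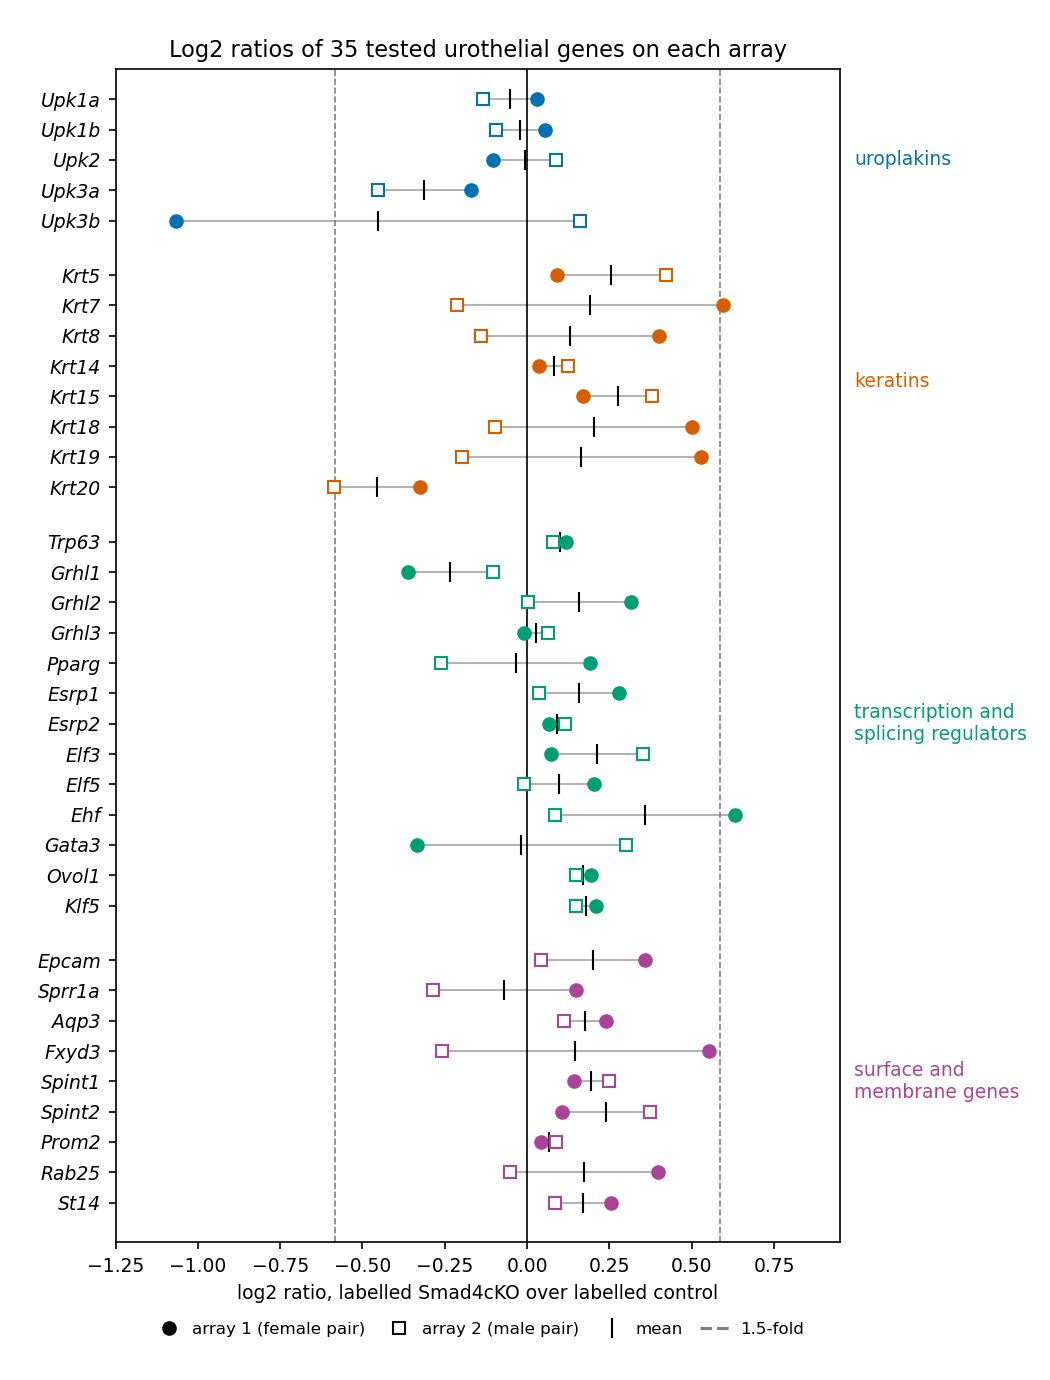
Log2 ratio of labelled Smad4cKO over labelled control (horizontal axis) for each of the 35 tested urothelial genes, on array 1 (filled circles) and array 2 (open squares), with the mean as a vertical tick and 1.5-fold as dashed lines. Points of Krt7, Krt8, Krt18, Krt19 and Fxyd3 lie right of 0 on array 1 and left of it on array 2, while Upk3a, Krt20 and Grhl1 lie left of 0 on both.

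Precision differed among the genes. The 95% interval of the mean log2 ratio, unadjusted and from limma's moderated standard error, lay within 1.5-fold either way for 24 of the 35 genes and for 18087 of the 21272 genes tested. The 11 genes with a wider interval were Upk3a, Upk3b, 6 of the 8 tested keratins (all but Krt14 and Krt8), Ehf, Fxyd3 and Spint2. For these genes the interval includes differences of 1.5-fold or more.

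The uroplakins form the plaques of the superficial cell membrane. Of the 5 tested, 0 were brighter on both arrays, 1 was dimmer on both and 4 had opposite signs. Their median log2 ratio was -0.05, with -0.10 on array 1 and -0.09 on array 2.

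Upk1a and Upk1b encode the tetraspanins that pair with the other uroplakins before they leave the endoplasmic reticulum. The processed signal of Upk1a, Feature Extraction's background-subtracted and dye-normalized intensity, was 2657 in the labelled Smad4cKO and 2533 in the labelled control on array 1. On array 2 it was 2812 and 3232. Neither array separated the genotypes by much, and the order turned between them. The log2 ratios were 0.03 and -0.13 (mean -0.05, SE 0.13, n = 2) at chr7:31388111-31388170. Upk1b is printed 10 times on the array, which allows a check within an array. Its signals were 3385 and 3245 on array 1 and 4150 and 4440 on array 2, for the labelled Smad4cKO and the labelled control in that order. Ratios of 0.05 and -0.09 were accompanied by an SD between its spots of 0.03 on each array. The spread among spots of 1 array was thus smaller than the difference between the arrays.

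Upk2 and Upk3a complete the plaque as single-pass partners of UPK1A and UPK1B. Upk2 had signals of 273 in the labelled Smad4cKO and 292 in the labelled control on array 1, and of 432 and 410 on array 2. Its log2 ratios of -0.10 and 0.09 gave a mean of -0.0077, or 1.01-fold. Upk3a was the uroplakin with a ratio of 1 sign: 4327 against 4692 on array 1 and 4738 against 6778 on array 2. The labelled control was the higher channel on both arrays, by more in the male pair. Its log2 ratios were -0.17 and -0.45 (mean -0.31, SE 0.14, n = 2, limma unadjusted p = 0.0726, adjusted p = 1.00), and the 95% interval ran from -0.66 to 0.04.

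Upk3b, a UPK3A relative that mesothelial cells also express, differed most between the arrays. On array 1 its signal was 170 in the labelled Smad4cKO and 400.3 in the labelled control. On array 2 the values were 248 and 224. The female pair alone showed the gap, with log2 ratios of -1.06 and 0.16 (mean -0.45, SE 0.29, n = 2) at chr5:136520522-136520581.

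Mesothelial markers varied on the same arrays. Of 9 listed, Upk3b included, 7 were tested: 1 was brighter on both arrays, 3 dimmer on both and 3 of opposite sign, with an array 1 median of -0.91 and an array 2 median of -0.10. Wt1, a mesothelial and kidney transcription factor, gave -1.14 and -0.81. Rspo1, which encodes a secreted WNT agonist, gave -1.44 and -1.002, and both passed the 1.5-fold rule. Cpe gave 0.13 and 0.16. The mucin gene Muc16 gave -0.91 and -0.11 from a dim probe (mean log2 brightness 7.41). Msln, which encodes mesothelin, gave 0.16 and -0.10, and Gpm6a gave -0.20 and 0.26. Muc16, Msln and Gpm6a were named after their values were seen. Lrrn4 and Bnc1 were not tested. The summed signals of the list lay at 24452 and 26899 in the channels labelled Smad4cKO and at 25712 and 28900 in those labelled control. The part of these cells in the Upk3b value was not tested.

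Keratins pair as type I and type II proteins into filaments. Of the 8 tested, 3 were brighter on both arrays, 1 was dimmer and 4 had opposite signs. Their median was 0.18, with 0.29 on array 1 and -0.12 on array 2.

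Krt7, Krt8, Krt18 and Krt19 are the keratins of simple epithelia, which urothelium also makes. Krt8 had a signal of 34752 in the labelled Smad4cKO and 23298 in the labelled control on array 1, and of 28632 and 38046 on array 2. Its partner Krt18 had 49661 and 31850 on array 1, then 38072 and 48377 on array 2. Each was thus the higher in the labelled Smad4cKO of the female pair and in the labelled control of the male pair. Krt19 followed with 28195 and 19070 on array 1 and 23855 and 29305 on array 2. Krt7 gave 14404 and 9910, then 13428 and 15066. All 4 keratins had the same order of channels, and in each the higher channel was the green one on both arrays.

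After loess, the log2 ratios were 0.59 and -0.21 for Krt7, 0.40 and -0.14 for Krt8, 0.50 and -0.10 for Krt18 and 0.53 and -0.20 for Krt19. The means lay between 0.13 for Krt8 and 0.20 for Krt18, with SE between 0.17 and 0.21 (n = 2). From the processed signals, which were normalized by Feature Extraction, the 4 genes kept these signs, with 0.58 and -0.41 for Krt8 and 0.64 and -0.35 for Krt18. Of the 15 urothelial genes with opposite signs, 11 were brighter in green on both arrays and 4 in red. Over all genes these numbers were 6737 and 6083. Other lists described below were also uneven: 12 and 2 for junction and polarity genes, 8 and 4 for stratified and basal cell genes. Macrophage markers had 5 and 0, and the further regulators of urothelial development had 4 in green and 11 in red.

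**Figure D2:**
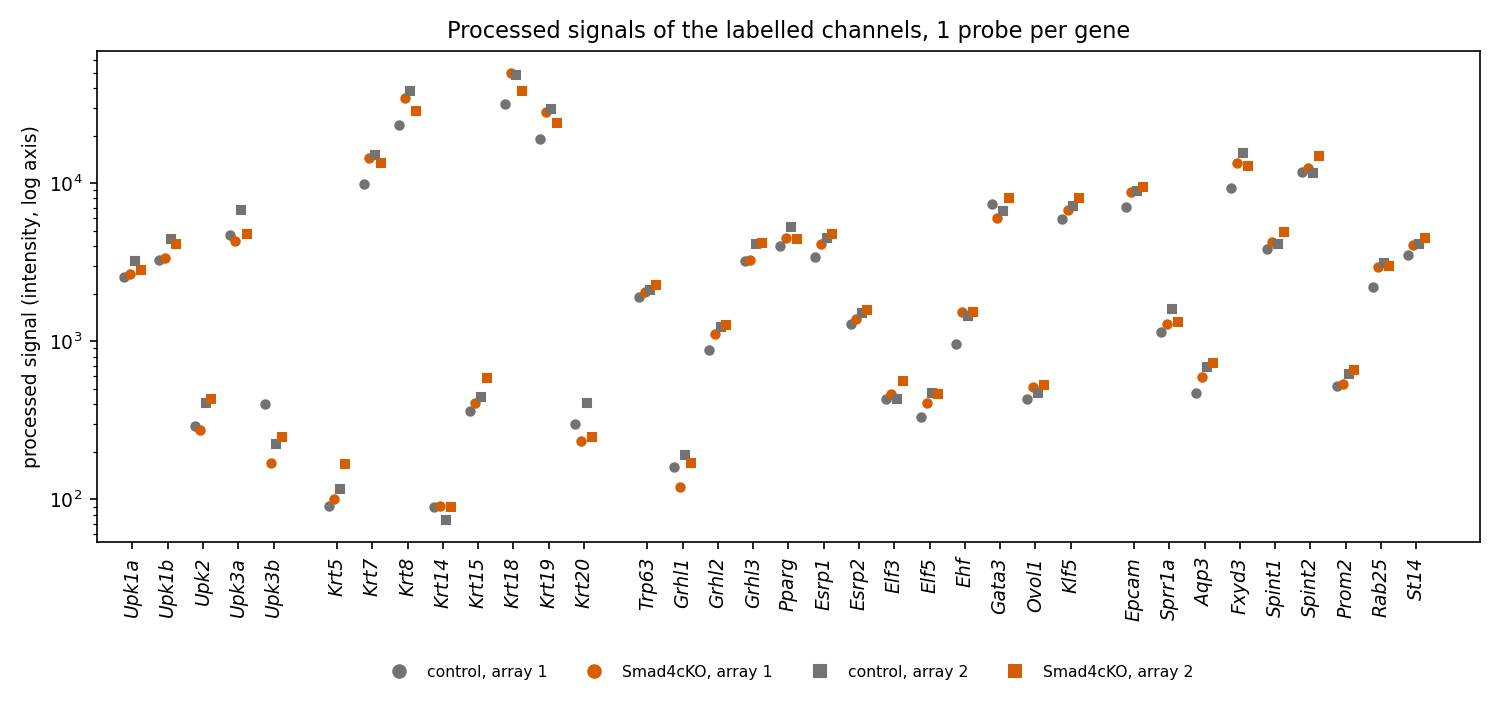
Processed signal (intensity, logarithmic vertical axis) of the probe used for each of the 35 tested genes in each of the 4 channels: labelled control (grey) and labelled Smad4cKO (orange), on array 1 (circles) and array 2 (squares). In Krt7, Krt8, Krt18 and Krt19 the orange circle lies above the grey circle and the orange square below the grey square, while for Krt20 and Upk3a the grey point is the higher on both arrays.

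The keratins of basal cells had another order. Krt5, the type II keratin of basal urothelium, had 101 in the labelled Smad4cKO and 90.4 in the labelled control on array 1, and 167 and 116 on array 2. Ratios of 0.09 and 0.42 gave a mean of 0.26 (SE 0.15, n = 2). A second Krt5 probe was not well above background in any channel and was not tested. Krt14, its type I partner, gave 90.9 and 89.4 on array 1 and 89.2 and 73.9 on array 2 (log2 ratios 0.04 and 0.13). Krt15, a type I keratin of basal cells, had 408 and 363 on array 1 and 581 and 442 on array 2. The labelled Smad4cKO was the higher channel for all 3 on both arrays. The Krt5 and Krt14 probes were dim (mean log2 brightness 8.07 and 7.91), and the Krt14 channels of array 1 barely differed. For Krt15 the mean was 0.27 (SE 0.14, n = 2, limma unadjusted p = 0.0933), from 0.17 and 0.38. Krt17, a keratin of basal and stressed epithelia, was well above background only in the labelled control of array 1 and was not tested. Its signals were 19.7 and 46.0 on array 1 and 26.2 and 30.8 on array 2.

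Krt20 is the keratin of superficial cells. Its signal was 234 in the labelled Smad4cKO and 298 in the labelled control on array 1, and 248 and 406 on array 2. The labelled control was the higher channel on both. Its log2 ratios of -0.33 and -0.59 gave a mean of -0.46 (SE 0.14, n = 2), or 1.37-fold, at chr11:99289776-99289835. The limma p was 0.0184 unadjusted and 0.625 adjusted over all genes. Under an intensity trend with robust empirical Bayes the adjusted p of Krt20 was 0.0461, and between 0.299 and 1.00 under the other alternatives.

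Regulators of epithelial identity include transcription factors and splicing factors. Of the 13 tested, 8 were brighter on both arrays, 1 was dimmer on both and 4 had opposite signs, and the list's median was 0.10 (array 1 0.19, array 2 0.08). The 95% interval lay within 1.5-fold either way for 12 of the 13.

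Trp63 encodes p63, the transcription factor of basal and intermediate cells. Its signals were 2037 and 1894 on array 1 and 2278 and 2124 on array 2, for the labelled Smad4cKO and the labelled control. The log2 ratios were 0.12 and 0.08 (mean 0.10, SE 0.13, n = 2), and a second probe gave 0.08 and 0.24. Both probes placed the labelled Smad4cKO slightly higher on both arrays.

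Grainyhead-like factors set up epithelial barriers and junctions. Grhl1 had 120 and 160 on array 1 and 169 and 191 on array 2, with log2 ratios of -0.36 and -0.10 (mean -0.23, SE 0.14, n = 2). It was the regulator that was dimmer on both arrays. Grhl2 gave 0.31 and 0.0013, and 0.23 and 0.16 at its second probe. Grhl3, which superficial cells need, gave -0.0084 and 0.06, with signals of 3268 and 3201 on array 1 and 4178 and 4151 on array 2. The 3 paralogs thus spanned means of -0.23, 0.16 and 0.03.

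Pparg and Gata3 act in urothelial differentiation as a nuclear receptor and a zinc finger factor. Pparg, printed 10 times, gave 0.19 and -0.26 with an SD between spots of 0.04 and 0.05. As with Upk1b, the spots of an array lay closer together than the arrays. Gata3 had 5996 in the labelled Smad4cKO and 7374 in the labelled control on array 1, and 8007 and 6709 on array 2. Its log2 ratios of -0.34 and 0.30 gave a mean of -0.02 (SE 0.19, n = 2). Unlike the simple keratins, Gata3 was brighter in red on both arrays. Gata3 is also made in the Wolffian duct and collecting ducts. Markers of ureteric tips and collecting ducts had medians of 0.08 and -0.0033 over 9 tested genes, Gata3 included, with 3 brighter on both arrays and 2 dimmer. Ret, the receptor of the ureteric tip, gave -1.45 and -0.33 in that list, and Hsd11b2, a collecting duct enzyme, gave 0.08 and 0.18.

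ETS factors of epithelia, Elf3, Elf5 and Ehf, had mean log2 ratios of 0.21, 0.10 and 0.36. Ehf signals were 1534 and 956 on array 1 and 1536 and 1441 on array 2. The gap lay mainly in the female pair, with 0.63 and 0.08 (SE of the mean 0.17, n = 2, limma unadjusted p = 0.0845). At a second Ehf probe the ratios were closer, 0.30 and 0.24. Elf3, which epithelia make as they mature, had 464 and 431 on array 1 and 560 and 428 on array 2, with ratios of 0.07 and 0.35. Elf5 gave 0.20 and -0.0092.

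Esrp1 and Esrp2 encode the splicing factors that maintain epithelial isoforms. Esrp1 gave 0.28 and 0.04 at the probe used and 0.02 and 0.30 at the other, with means of 0.16 at both. The probes of 1 gene thus placed the larger ratio on different arrays. Esrp2 gave 0.07 and 0.11. The zinc finger genes Ovol1 and Klf5, of which Klf5 is needed for urothelial maturation, had similar ratios on both arrays. Klf5 had 6795 and 5935 on array 1 and 8091 and 7210 on array 2 (log2 ratios 0.21 and 0.15, mean 0.18, SE 0.13, n = 2). Ovol1 gave 0.19 and 0.15.

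Of 9 surface and membrane genes tested, 6 were brighter on both arrays, 0 were dimmer on both and 3 had opposite signs, and the list's median was 0.17 (array 1 0.24, array 2 0.08). Epcam, the pan-epithelial adhesion molecule, stands for the epithelium as a whole. Its signals were 8730 and 7013 on array 1 and 9396 and 8932 on array 2. The labelled Smad4cKO was the higher on both, with log2 ratios of 0.36 and 0.04 (mean 0.20, SE 0.14, n = 2).

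Spint1 and Spint2 encode inhibitors of membrane serine proteases, and St14 encodes matriptase, the protease they restrain. Spint1 gave 0.14 and 0.25, with 0.38 and 0.16 at a second probe. Spint2 gave 0.11 and 0.37, with 0.30 and 0.16 at a second probe. St14 gave 0.25 and 0.08, from signals of 4047 and 3534 on array 1 and 4522 and 4141 on array 2. All 5 probes of protease and inhibitors were brighter in the labelled Smad4cKO on both arrays, by at most 0.38. Means lay at 0.17 for St14, 0.19 for Spint1 and 0.24 for Spint2.

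Transport and trafficking genes were mixed. Aqp3, a water and glycerol channel, gave 0.24 and 0.11. Fxyd3, a regulator of the sodium pump, had 13392 in the labelled Smad4cKO and 9323 in the labelled control on array 1, and 12812 and 15517 on array 2. Its ratios of 0.55 and -0.26 (mean 0.15, SE 0.21, n = 2) followed the order of the simple keratins. Rab25, a GTPase of apical recycling, gave 0.40 and -0.05. The pentaspan membrane gene Prom2 gave 0.04 and 0.09, and its other probe was not tested. Sprr1a, a precursor of the cornified envelope, gave 0.15 and -0.29. Psca, a surface antigen of urothelium, was well above background only in the labelled Smad4cKO of array 1 and was not tested, with signals of 34.4 and 32.2 on array 1 and 38.3 and 37.6 on array 2.

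Across the 6 genes with 2 tested probes (Trp63, Grhl2, Esrp1, Ehf, Spint1 and Spint2), the probes gave means of the same sign for all 6. The means of a gene's probes differed by 0.09 at most, for Ehf.

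**Figure D3:**
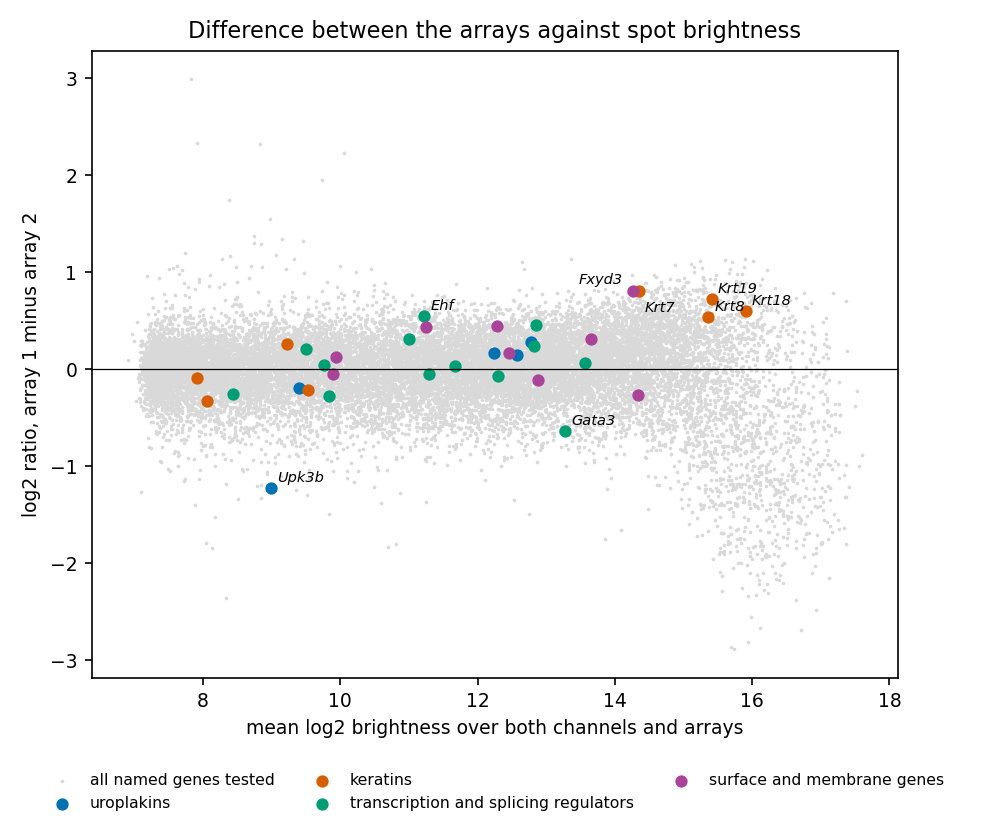
Log2 ratio on array 1 minus that on array 2 (vertical axis) against the mean log2 brightness of the spots over both channels and arrays (horizontal axis), for the urothelial genes in 4 colours and all named genes tested in grey. Krt7, Krt8, Krt18, Krt19 and Fxyd3 lie above 0 among bright spots, where grey points reach both signs, and Upk3b lies lowest among the coloured points.

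Opposite signs went with the brightness of the spot, which belongs to the spot and is no measure of transcript amount. Across the whole series, the log2 ratios of array 1 and array 2 had a Pearson correlation of -0.07. It was -0.42 at or above median brightness and 0.33 below it. When all genes were ranked by brightness and cut into 4 groups of 5318, the brightest group held 8 of the 35. Of these, 5 were brighter in green on both arrays, 0 in red and 3 in the labelled Smad4cKO on both. In that group 42.1% of all genes were brighter in green on both arrays and 35.8% in red. Next to the dimmest group lay 13 of the 35, with 8 brighter in the labelled Smad4cKO on both arrays, 1 dimmer, 2 brighter in green and 2 in red. There 23.2% of all genes lay above 0 on both arrays and 24.3% below.

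As a description across genes, which share the 2 arrays and are not replicates, the difference between the arrays correlated with spot brightness at 0.55 over the 35 genes and at 0.90 over the 8 keratins. It was 0.07 over the 13 regulators, 0.16 over the 9 surface and membrane genes and -0.10 over all 21272 genes. The same difference correlated with the GC content of the probe at 0.49 over the 41 tested urothelial probes and at 0.30 over all 26669. Over the urothelial probes GC content and brightness correlated at 0.44, against -0.02 over all, so the 2 properties were joined among these probes. Which of dye, sex, brightness and base composition the difference follows was not tested.

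Other genes of urothelial development had 0 members past limma or the 1.5-fold rule. Of 28 further regulators tested, 7 were brighter on both arrays, 6 dimmer and 15 opposite, with a median of 0.03. Emx2, a homeobox gene of the urogenital epithelium, gave 0.17 and 0.29, and Cited1 gave -0.11 and -0.29.

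Among 16 tested genes of signals that act on or from the urothelium, 8 were brighter on both arrays, 6 dimmer and 2 opposite, with a median of 0.04. Fgfr3, an FGF receptor of urothelial cells, had the largest ratio of this list above 0, 0.56 and 0.73 (mean 0.64, SE 0.13, n = 2, limma unadjusted p = 0.0033, adjusted p = 0.291). It missed the 1.5-fold rule on array 1. Fgfr2, another FGF receptor gene named after its values were seen, gave 0.56 and 0.25 (limma unadjusted p = 0.0336, adjusted p = 0.829). The rest of the 8 brighter genes are not given here. The 6 genes below 0 on both arrays were led by Ret, at -1.45 and -0.33 (mean -0.89, SE 0.27, n = 2, limma unadjusted p = 0.016, adjusted p = 0.600). Bmpr1b, a BMP receptor gene, gave -0.61 and -0.37, and Fgf9, an FGF ligand gene, gave -0.38 and -0.45, with limma adjusted p of 0.542 and 0.638. The WNT ligand gene Wnt11 gave -0.18 and -0.27. The other 2, named after their values were seen, were Gfra1, a coreceptor of Ret, at -0.45 and -0.15, and the BMP ligand gene Bmp7 at -0.41 and -0.15.

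Junction and polarity genes, 34 tested, had 16 brighter on both arrays, 4 dimmer and 14 opposite, with a median of 0.13. Cdh1, the gene of E-cadherin, gave 0.24 and 0.28, and the claudin gene Cldn3 gave 0.38 and 0.30. Cxadr, a tight junction adhesion gene, gave -0.23 and -0.22. Like Epcam, Cdh1 is made by epithelia in general, and both lay slightly above 0 on both arrays. Stratified and basal cell genes, 21 tested, had 5 brighter (23.8%), 4 dimmer (19.0%) and 12 opposite (57.1%), with a median of 0.06. Those shares were close to the shares over all genes. In that list Cd44, a hyaluronan receptor, gave 0.35 and 0.32 and Itgb4, the integrin of hemidesmosomes, gave 0.25 and 0.17. Ngfr, which nerves and mesenchyme also make, gave -0.40 and -0.15.

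Smooth muscle surrounds the urothelium and derives from the mesenchyme in which Cre acts. Of 8 smooth muscle markers, 7 were brighter in the labelled Smad4cKO on both arrays and 1 was dimmer, and 6 passed the 1.5-fold rule. The dimmer one was Synpo2 (-0.91 and -0.05), named after its values were seen. The smooth muscle myosin gene Myh11 gave 2.08 and 2.65 (mean 2.37 with an SE of 0.18, n = 2, limma adjusted p = 0.0736), and Acta2, the smooth muscle actin gene, 1.03 and 2.14. Summed signals of the list were 30720 and 48629 in the channels labelled Smad4cKO and 16896 and 15635 in those labelled control. Summed over the 5 uroplakins, signals were 10813 and 12380 against 11162 and 15082, and over the 13 regulators 32224 and 37846 against 30277 and 35694. The 8 keratins summed to 127847 and 105072 against 84969 and 131832, and the 9 surface and membrane genes to 48291 and 52223 against 39688 and 50436. The smooth muscle marker Tagln, named after its values were seen, gave 0.07 and 0.53, and so lay within the range of the urothelial genes on array 1.

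**Figure D4:**
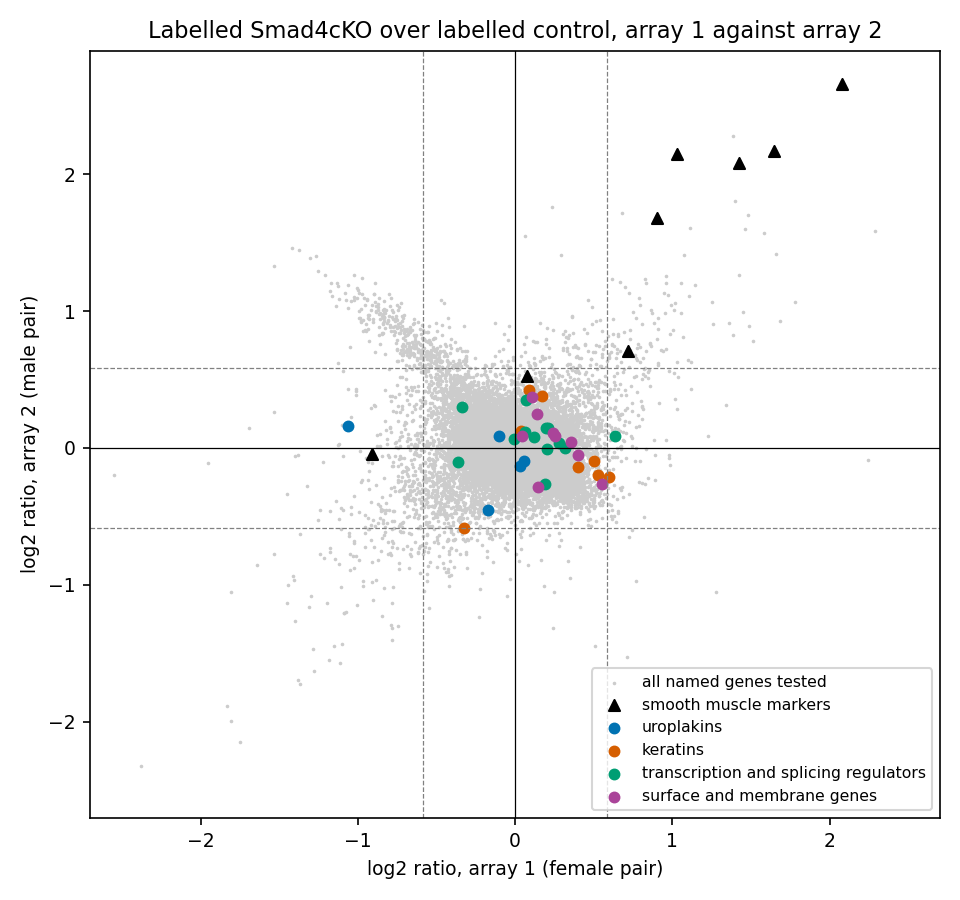
Log2 ratio of labelled Smad4cKO over labelled control on array 1 (horizontal axis) against array 2 (vertical axis), for all named genes tested (grey), smooth muscle markers (black triangles) and urothelial genes in 4 colours, with 1.5-fold as dashed lines. The 6 smooth muscle markers past 1.5-fold lie in the upper right corner, while 0 of the 35 urothelial genes lie beyond the dashed lines in the same direction on both arrays.

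Other cell types of the dissected tissue were read from marker lists. Over all genes tested, 19.9% were brighter on both arrays and 19.8% dimmer on both. Of 9 neuronal and glial markers 8 were dimmer on both arrays (medians -0.77 and -0.27), with Prph, a neuronal intermediate filament gene, at -1.03 and -0.69. Macrophage markers had 3 of 8 brighter on both arrays and 0 dimmer, with Mrc1 at 0.47 and 0.37. Endothelial markers had 4 of 8 brighter and 0 dimmer, with Esam at 0.14 and 0.50. Erythroid markers had 1 of 8 brighter, 4 dimmer and 3 of opposite sign. Gata1 gave -0.52 and -0.51 from a dim probe (mean log2 brightness 7.86). The globin genes, named after their values were seen, were the brighter one and those of opposite sign. Hba-x gave 0.26 and 0.06, Hba-a1 -0.86 and 0.94, Hbb-y -0.31 and 0.65, and Hbb-bh1 0.48 and -0.09. Nephron and duct markers had 2 of 6 brighter in each list, and 2 and 1 dimmer. Epidermal markers, from the epithelium that makes Krt5 and Krt14 most, had 0 of 5 brighter and 2 dimmer, with Krt10 at -0.07 and -0.01 and Lor at -0.17 and -0.09. Gonad and germ cell markers had 0 of 4 brighter and 2 dimmer. The part of these cell types in the urothelial values was not tested.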

How the data were processed

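Per the submitters' processing notes, Agilent Feature Extraction (version 10.7.3.1) made the deposited scanner files, which give an intensity per spot and dye: mean signal, background median and processed signal. That software subtracted background from the processed signals and balanced the dyes, per the file headers. In the authors' deposited table each value is a ratio of the channels written as a signed fold, and each column's median is 1. How it was computed is not given in the labels.

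Mean signals were corrected with normexp (offset 50) and loess within each array (limma 3.58.1, R 4.3.3), with 1377 control spots at weight 0 and outlier spots dropped. Spots of a probe were averaged, and the brightest tested probe stands for a gene. Mean ratios were tested against 0 with lmFit and eBayes (1 residual and 4.81 prior degrees of freedom, so the SE rests mostly on a spread pooled over genes) and adjusted by Benjamini-Hochberg. The fit was checked on simulated data, but no outcome of that check is given here. All urothelial genes are named, and of the other lists the genes past 1.5-fold or the 3 with the largest smaller ratio of 1 sign. A gene that this rule names is not reported here. Members and lists were chosen with earlier results of these data known. Accessions were matched to a RefSeq gene table (GRCm38.p6). Alternatives changed the background correction, normalization, dim-probe filter, outlier handling, probe choice, empirical Bayes, source of values and arrays used. The number of arrays limits the precision.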

Additional observations from a re-analysis of the deposited data

Results flagged for a closer look

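In 15 urothelial genes the log2 ratio had opposite signs in the female and the male pair. These differences rest on 1 array per sex and were not tested, and dye orientation changed with sex, so the 2 cannot be told apart. The ratio in the female pair minus that in the male pair was 0.81 for Krt7, 0.54 for Krt8, 0.60 for Krt18 and 0.73 for Krt19. It was 0.81 for Fxyd3, 0.45 for Rab25, 0.43 for Sprr1a, 0.45 for Pparg and 0.21 for Elf5. Smaller values were 0.17 for Upk1a and 0.15 for Upk1b. These 11 genes were brighter in green on both arrays. In the other 4 the value was below 0: -1.23 for Upk3b, -0.64 for Gata3, -0.19 for Upk2 and -0.071 for Grhl3.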

How the results depend on the processing

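With 2 arrays and 1 spread pooled over genes, limma's counts over all genes depended on the processing, while those over the urothelial genes changed under a single alternative. From 0 brighter and 0 dimmer genes, limma's counts over all genes went to 145 and 164 with processed signals, 32 and 30 with normexp offset 10, 292 and 397 with robust empirical Bayes and an intensity trend, and 71 and 77 from the authors' deposited table. With no background subtraction, with probes well above background in both channels and with no filter on dim probes, 1 gene was dimmer. The trend with robust empirical Bayes called 1 urothelial gene dimmer, Krt20. The other alternatives called 0 urothelial genes in either direction, with 1 or fewer at an unadjusted limma p under 0.05. Counts past 1.5-fold on both arrays were 184 brighter and 199 dimmer with processed signals and 177 and 184 from the authors' deposited table. With a single array, they ran from 256 to 641 brighter and 242 to 688 dimmer over all genes, and from 0 to 2 and 1 to 1 among the urothelial genes. Urothelial genes above 0 then numbered 21 to 28, and those below 0 numbered 7 to 14.

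The median of the uroplakins was -0.066 with processed signals, -0.043 with median centring and -0.058 from the authors' deposited table, and -0.103 to -0.094 with a single array. With a single array the keratins ran from -0.12 to 0.29 and the regulators from 0.080 to 0.191. Upk2, near 0, reversed to 0.0025 with median centring. The other 34 tested urothelial genes kept the sign of their mean under all alternatives that use both arrays, and 16 to 18 were brighter and 3 dimmer on both arrays. The cause of these changes was not tested. The test of the ratios against 0 is itself paired, because each ratio pairs the channels of its array. That leaves 1 group of 2 ratios, in which no further pairing was possible.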
